A study of Mus musculus with 6 samples.

Results

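The transcripts described here are 46 genes of the unfolded protein response and of the response to amino acid shortage, taken by symbol from a deposited expression table of 52183 genes, in which each of the 46 was found once. They were measured in haematopoietic stem cells purified by flow cytometry from the bone marrow of female mice at 4 months of age. The label Control was given to 3 libraries and the label Thbs1 knockout to the other 3, titled TSPKO, and no treatment is named for either group. The labels name no strain and do not say which part of Thbs1 was deleted, in which cells, or whether the libraries came from separate animals, so the p-values measure the spread between these libraries alone. The comparison asks which transcripts of the stem cells differ when Thbs1, the gene of the secreted matrix protein thrombospondin 1, is deleted.

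Proteins bound for the membrane, the surface or the outside of a cell are folded in the endoplasmic reticulum, and unfolded protein there is sensed by the membrane proteins IRE1 (gene Ern1), PERK (Eif2ak3) and ATF6. IRE1 splices the transcript of Xbp1 into its active form, ATF6 is released to act as a transcription factor, and PERK phosphorylates the translation initiation factor eIF2. The kinases GCN2 (Eif2ak4), which senses uncharged transfer RNA, and HRI (Eif2ak1), which senses haem and mitochondrial stress, phosphorylate the same factor. Phosphorylated eIF2 lowers translation in general and favours translation of ATF4, which switches on genes for amino acid synthesis and uptake. Haematopoietic stem cells are known for low protein synthesis and for their sensitivity to misfolded protein. The values here are transcript levels summed over all exons of a gene, so they show neither the splicing of Xbp1 nor the phosphorylation of eIF2 nor the translation of Atf4.

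Levels are in the authors' FPKM, which divides a gene's fragments by its exon length and by the depth of the library. The steps between the FPKM values of short genes correspond to between 22730000 and 30890000 reads per library. Values below are listed in the order of libraries 1 to 3, control before knockout label. Thbs1 itself measured 4.12, 13.8 and 2.33 FPKM in the controls against 10.8, 8.50 and 7.68 FPKM under the knockout label, so its level did not follow the label (limma adjusted p = 0.503), and every direction below rests on the labels alone. All 10 stem cell markers examined were tested and above 1 FPKM, and their summed level ran from 768 to 857 FPKM in the control libraries and from 760.1 to 871 FPKM in those labelled knockout. Plasma cells, which carry a strong unfolded protein response, were looked for with 6 markers. Without Xbp1, the other 5 summed to between 3 and 3.85 FPKM in control libraries and between 3.09 and 3.57 FPKM in the others, and 4 of the 5 stayed below 1 FPKM everywhere. Summed markers of T and NK cells ran from 77.5 to 104 FPKM against 54.8 to 66.5 FPKM, nearly all of it Nkg7, those of red cells from 30.6 to 38.1 FPKM against 22.0 to 25.6 FPKM, and those of megakaryocytes and platelets from 385 to 487 FPKM against 266 to 373 FPKM. Markers of B cells (27.5 to 30.1 against 23.5 to 25.8 FPKM) were nearly all Cd79b, while those of neutrophils and macrophages (3.59 to 4.33 against 2.94 to 4.36 FPKM) and of endothelium and stroma (10.5 to 12.2 against 9.26 to 11.3 FPKM) overlapped. Of all these markers, the Sca-1 gene Ly6a fell from a mean of 114.8 to one of 76.9 FPKM (limma adjusted p = 0.0286), Nkg7 from 88.6 to 54.6 FPKM (0.0332) and the beta globin gene Hbb-bt from 14.8 to 4.06 FPKM (0.00247). Most of the megakaryocyte and platelet sum was Pf4 (means of 314.9 and 189.3 FPKM, limma adjusted p = 0.0594). In each other marker of that list the groups overlapped. The tested red cell markers besides Hbb-bt overlapped too, and Klf1 alone pointed up (means of 10.3 and 12.9 FPKM). No marker was at 0 in all 6 libraries. The part of these cells in the results below was not tested, and in such bulk libraries fewer cells of a type cannot be told apart from less of its RNA per cell.

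The libraries labelled knockout held a higher level of Herpud1, which helps clear misfolded protein from the endoplasmic reticulum, and of Asns, which makes asparagine, and a lower level of Pdia3, a disulfide isomerase that folds glycoproteins. The rises were 1.35-fold and 1.34-fold in mean FPKM, and Pdia3 fell to 0.790 of its control level. The other 40 of 43 tested members were not called, and 3 members were too low to test. Over all 12555 tested genes, 0.566% were called higher and 0.996% lower at a limma adjusted p below 0.05, against 2 and 1 of the 43 members. Fitted changes were above 0 for 30 of the 43 members (69.8%, against 53.4% of all tested genes), with a median log2 change of 0.05 against 0.01. The 3 libraries of one group lay wholly above those of the other in 9 members with the knockout label higher and in 2 with it lower. These are 20.9% and 4.7% of the members, where 12.6% and 10.1% of all tested genes were separated in this way. An unadjusted p below 0.05 was reached by 14 members (32.6%), against 16.4% of all tested genes. None of these shares was matched for level. At least 362 reads lay behind each value of a tested member.

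**Figure D1:**
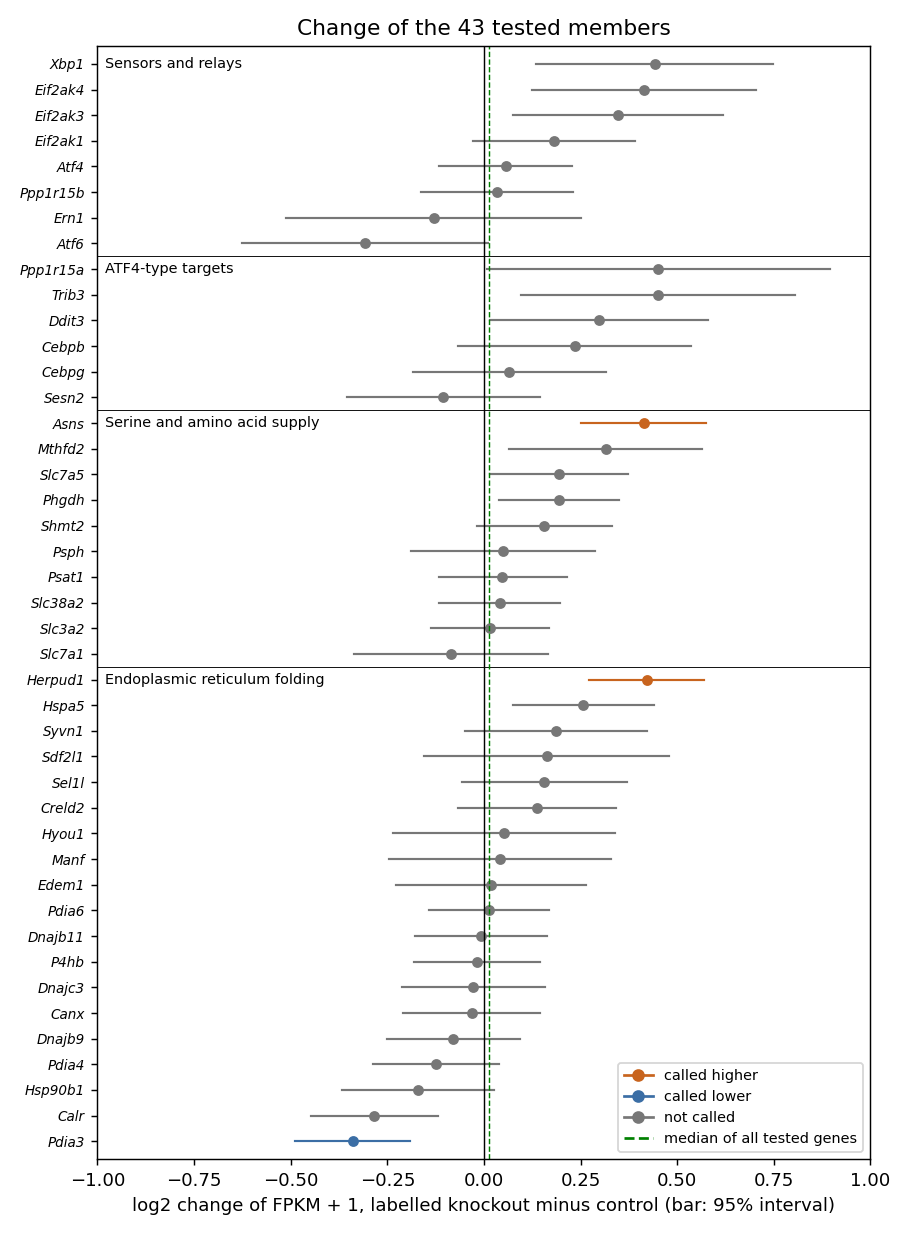
Log2 change (x axis, log2 of FPKM + 1, libraries labelled knockout minus control) of the 43 tested members (rows) by role, with the 95% interval of the limma fit as bars and the median of all tested genes as a dashed line. Herpud1 and Asns are called higher and Pdia3 lower, and 9 of the 10 tested supply genes lie above 0.

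The members differed far more in level than between groups. Calr had the highest mean over the 6 libraries (361 FPKM), followed by Pdia3 (259.5 FPKM), P4hb (209.6 FPKM), Hspa5 (172.5 FPKM) and Canx (149 FPKM), all chaperones or isomerases of the endoplasmic reticulum with a level above that of at least 97.7% of tested genes. The sensors stood much lower, from 3.79 FPKM for Atf6 and 3.88 FPKM for Eif2ak3 to 13.9 FPKM for Eif2ak1. Xbp1 and Atf4, the transcription factors below them, stood at 85.4 and 82.9 FPKM. Slc7a11, the cystine transporter, stood at 0.0450 FPKM, Chac1, which breaks down glutathione, at 0.228 FPKM and the transcription factor gene Atf5 at 0.728 FPKM. Between 0 and 35 reads lay behind each value of Slc7a11, between 4 and 18 behind each of Chac1 and between 13 and 57 behind each of Atf5. Part of Slc7a11 is also at least 95% identical to alpha tubulin transcripts. These 3, which ATF4 is known to induce, did not enter the test. Within groups the tested members varied little, with a median coefficient of variation of 6.8% in the control libraries and 7.6% in the others, against 10.2% and 10.1% over all tested genes. That comparison was not matched for level, and most tested members stand in the upper part of the levels of all tested genes. Ppp1r15a (33.6%), Ern1 (27.4%), Sdf2l1 (21.2%) and Eif2ak4 (19.7%) varied most among control libraries and Trib3 (28.0%) among those labelled knockout.

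**Figure D2:**
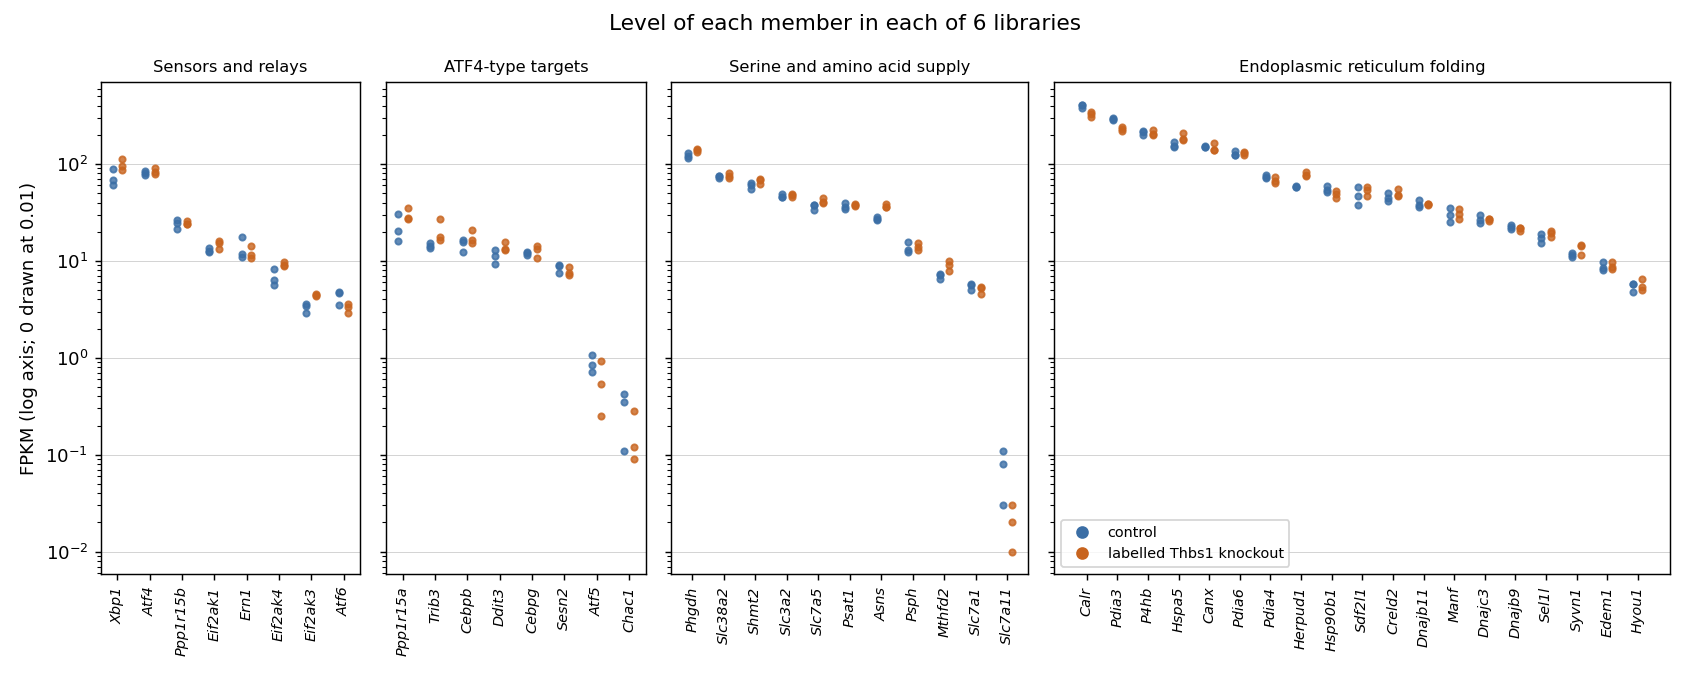
FPKM (y axis, log scale) of all 46 members in each of the 6 libraries, by role and in order of mean level, with 1 point per library. Calr leads at a mean of 361 FPKM, and Slc7a11, Chac1 and Atf5 lie below 1 FPKM on average.

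The promoters of several members carry short elements through which these pathways act, and RefSeq windows of 300 bases (250 before and 50 after each start, GRCm38.p6) were found for 41 of the 46 members, all but Atf6, Ppp1r15b, Slc7a5, Manf and Hyou1. Searched on both strands were the ATF4 element TGATGNAA, the XBP1 element TGACGTGG, the endoplasmic reticulum stress element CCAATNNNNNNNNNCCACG and its second form, ATTGG and CCACG with 1 base between them. The stress element was in the windows of 8 members (19.5%), against 0.14% of 27025 genes with a window, and its second form in those of 2 (4.9%, against 0.04%). The ATF4 element was in those of 5 members (12.2%, against 4.51%) and the XBP1 element in those of 0 members (0.71% of all genes). These elements were worked out on promoters of such genes, so the shares describe the members and are no independent result. No matches overlapped within a member's window. The windows below belong to the 2 members that rose and to Hspa5, the chief chaperone of the organelle, and capitals mark the matches.

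Herpud1 (chr8:94386179-94386478, plus strand): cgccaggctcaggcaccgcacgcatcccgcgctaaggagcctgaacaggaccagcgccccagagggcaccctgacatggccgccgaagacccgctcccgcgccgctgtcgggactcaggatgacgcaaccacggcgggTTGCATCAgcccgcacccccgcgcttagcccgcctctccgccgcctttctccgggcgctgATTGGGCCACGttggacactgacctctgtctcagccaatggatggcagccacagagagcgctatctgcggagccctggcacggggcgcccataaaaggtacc
Asns (chr6:7693160-7693459, minus strand): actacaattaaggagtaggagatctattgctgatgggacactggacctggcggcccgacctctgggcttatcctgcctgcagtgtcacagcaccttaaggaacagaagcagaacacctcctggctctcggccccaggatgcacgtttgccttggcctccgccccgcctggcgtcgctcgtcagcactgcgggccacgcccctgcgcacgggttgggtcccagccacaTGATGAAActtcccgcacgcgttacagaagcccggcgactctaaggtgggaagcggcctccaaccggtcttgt
Hspa5 (chr2:34771840-34772139, plus strand): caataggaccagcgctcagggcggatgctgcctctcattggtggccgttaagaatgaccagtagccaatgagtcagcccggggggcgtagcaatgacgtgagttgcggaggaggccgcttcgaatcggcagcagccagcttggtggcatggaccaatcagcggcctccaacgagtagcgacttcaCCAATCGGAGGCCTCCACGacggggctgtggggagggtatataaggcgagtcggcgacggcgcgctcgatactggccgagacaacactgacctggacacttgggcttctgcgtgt

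In Herpud1 the ATF4 element, on the opposite strand, begins 112 bases before the start and the second form of the stress element 52 bases before it. In Asns the ATF4 element begins 23 bases before the start, and in Hspa5 the stress element 65 bases before it. The remaining windows with the stress element belong to the folding genes Hsp90b1, Calr, Canx, Pdia6, Creld2, Dnajc3 and Syvn1. Their matches, shown to let the fixed ends and the variable middle be compared, read as follows in the orientation of the element, with the fixed ends in capitals.

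Hsp90b1, first match: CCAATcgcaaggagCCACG
Hsp90b1, second match: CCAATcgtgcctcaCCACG
Calr: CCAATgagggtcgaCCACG
Canx: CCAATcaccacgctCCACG
Pdia6: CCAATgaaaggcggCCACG
Creld2: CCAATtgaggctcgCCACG
Dnajc3: CCAATcagcgccaaCCACG
Syvn1: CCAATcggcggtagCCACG

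The other windows with the ATF4 element were those of Trib3, Chac1 and Slc7a11, of which the last 2 were too low to test. The 3 tested members with the ATF4 element, Herpud1, Asns and Trib3, had fitted log2 changes of 0.42, 0.41 and 0.45. The 8 tested members with the stress element ran from -0.28 for Calr to 0.26 for Hspa5, with a median of -0.01, and 4 of them lay above 0. Of the 8999 tested genes with a promoter window, 233 held the ATF4 element, the 3 members included. The median log2 change of the 233 was 0.02. Of the 233, 3 were called higher, 2 of them Herpud1 and Asns, 3 were called lower, and 55 had an unadjusted p below 0.05. The 16 tested genes with the stress element, 8 of them members, had a median of -0.03. Limma called 0 of them in either direction, with 4 at an unadjusted p below 0.05. Over all 12555 tested genes, a set that includes genes without a window, 0.566% were called higher and 0.996% lower. Of the same set, 16.4% had an unadjusted p below 0.05.

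Among the sensors and the factors directly below them, limma called 0 of 8 members, and 3 (37.5%) had an unadjusted p below 0.05. Of all tested genes, 0.566% were called higher, 0.996% lower, and 16.4% had such a p. Eif2ak3, the gene of PERK, stood at 3.59, 3.43 and 2.89 FPKM in the control libraries and at 4.34, 4.45 and 4.59 FPKM in those labelled knockout. The groups did not overlap, with means of 3.30 ± 0.367 and 4.46 ± 0.125 FPKM (SD, n = 3 each), yet the change missed the threshold (log2 change 0.35 ± 0.12 SE, limma adjusted p = 0.192). Eif2ak4, the gene of GCN2, stood at 8.25, 6.34 and 5.69 FPKM and at 8.84, 9.77 and 9.15 FPKM (0.41 ± 0.13, limma adjusted p = 0.152). Its groups did not overlap either, though control library 1 came close to the lowest library labelled knockout. Eif2ak4 lies 0.26 Mb from Thbs1 on chromosome 2 (118388618 to 118475234, GRCm38), and whether DNA carried along with the targeted Thbs1 allele bears on its level was not tested.

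Xbp1 stood at 61.0, 88.0 and 68.5 FPKM in the control libraries and at 113, 94.1 and 87.5 FPKM in the others (0.44 ± 0.14, limma adjusted p = 0.149). Control library 2 reached the level of the lowest library labelled knockout, and without it the change was 0.59 (limma adjusted p = 0.0722). Atf4 stood at 77.1, 81.2 and 85.3 FPKM and at 91.7, 82.6 and 79.2 FPKM, with groups that overlapped widely (0.06, 95% interval -0.12 to 0.23). The interval thus holds 0. Those of Xbp1 (0.136 to 0.748) and Eif2ak4 (0.125 to 0.704) overlap it, and differences between these genes were not tested. Atf6 had a fitted change of -0.31 (95% interval -0.63 to 0.01) and Ern1 of -0.13 (-0.51 to 0.25), so their direction was not settled. Eif2ak1 stood at 12.9 ± 0.634 and 14.8 ± 1.40 FPKM, an estimate that includes 487 bases of exon shared with the neighbouring gene Aimp2, read from the other strand. Ppp1r15b, which encodes the constitutive subunit of the eIF2 phosphatase, had a change of 0.03 (-0.16 to 0.23).

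Of the 8 ATF4-type targets, 6 could be tested, limma called 0, and 3 had an unadjusted p below 0.05. Trib3, a pseudokinase that restrains ATF4 and AKT, stood at 15.2, 14.3 and 13.45 FPKM in the control libraries and at 26.9, 16.5 and 17.7 FPKM in those labelled knockout. All libraries labelled knockout lay above all control libraries, and the first of them stood well apart from the other 2 (log2 change 0.45 ± 0.16, limma adjusted p = 0.196). Without that library the change of Trib3 was 0.24. Ddit3, which encodes the cell death factor CHOP, stood at 11.25, 13.04 and 9.31 FPKM and at 15.64, 13.14 and 12.99 FPKM (0.30 ± 0.13, limma adjusted p = 0.282). The lower 2 libraries labelled knockout matched control library 2, and without control library 3 the change was 0.18 (limma adjusted p = 0.488). Ppp1r15a, which encodes the stress-induced phosphatase subunit GADD34, stood at 20.4, 30.5 and 15.9 FPKM and at 35.0, 27.8 and 27.1 FPKM (0.45 ± 0.20, limma adjusted p = 0.298). Here too control library 2 lay within the other group, and the change was 0.69 without it (limma adjusted p = 0.0737). It was 0.24 without control library 3. Cebpb and Cebpg, partners of ATF4 on DNA, had changes of 0.23 and 0.07, and Sesn2, an inhibitor of mTORC1, of -0.11, all with 95% intervals that hold 0. For Cebpb, 312 of 1504 exon bases are shared with Tmem189.

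The supply of serine and amino acids gave 1 called member of 10 tested, and 9 of the 10 had fitted changes above 0 (median 0.10), where 0.566% of all tested genes were called higher and 53.4% lay above 0. Asns (ENSMUSG00000029752, chromosome 6, 7675169 to 7693254, GRCm38), whose promoter is shown above, stood at 27.0, 26.2 and 28.7 FPKM in the control libraries and at 35.5, 38.2 and 36.3 FPKM in those labelled knockout. The groups were far apart against their spread (means 27.3 ± 1.27 and 36.7 ± 1.39 FPKM), and Asns rose by a log2 change of 0.41 ± 0.07 (limma adjusted p = 0.0284). Leaving out 1 library at a time gave an adjusted p between 0.0403 and 0.116, and the call was kept only in the fit without control library 3. It was also lost with no filter on low genes (0.124) and without the intensity trend (0.0867). In the 3-step synthesis of serine, Phgdh, the first enzyme, stood at 119.6, 115 and 129 FPKM and at 134, 143 and 139 FPKM without overlap (0.19 ± 0.07, limma adjusted p = 0.201). Reads of Phgdh are uncertain, because 8 pseudogenes carry stretches at least 95% identical to it, though the highest of the 7 that the table lists stood at 2.09 FPKM on average. Psat1 (0.05, 95% interval -0.12 to 0.21) and Psph (0.05, -0.19 to 0.29), the enzymes of the later steps, had intervals that hold 0, and Psph shares 452 of its 4329 exon bases with the highly expressed Cct6a.

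Of the mitochondrial enzymes that pass on the carbon of serine, Mthfd2 stood at 6.43, 7.18 and 7.27 FPKM and at 9.14, 9.89 and 7.77 FPKM, with every library labelled knockout above every control library (0.32 ± 0.11, limma adjusted p = 0.199). Shmt2 stood at 60.2 ± 4.10 and 67.1 ± 4.11 FPKM with overlap. Slc7a5, the light chain of the LAT1 transporter of large neutral amino acids, stood at 37.4, 33.8 and 37.5 FPKM and at 40.03, 45 and 39.9 FPKM, again without overlap (0.19, 95% interval 0.02 to 0.37). Its partner chain Slc3a2 did not share this shift in its fitted value (0.02, -0.14 to 0.17), and the difference between the pair was not tested. The arginine and lysine transporter gene Slc7a1 (-0.09, -0.34 to 0.17) and the glutamine transporter gene Slc38a2 (0.04, -0.12 to 0.20) had intervals that hold 0.

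The 19 genes of folding and clearance in the endoplasmic reticulum were all tested, with 1 called higher, 1 lower and 17 not called. Over all tested genes, 0.566% were called higher and 0.996% lower. Fitted changes of the 19 were split evenly, 10 above 0 and 9 below, around a median of 0.01. Herpud1 (ENSMUSG00000031770, chromosome 8, 94386438 to 94395377, GRCm38) stood at 58.2, 58.7 and 57.8 FPKM in the control libraries and at 82.9, 75.1 and 77.1 FPKM in those labelled knockout. The control libraries lay within 1 FPKM of each other, and Herpud1 rose by a log2 change of 0.42 ± 0.07 (means 58.2 ± 0.465 and 78.4 ± 4.04 FPKM, limma adjusted p = 0.0159). As for Asns, of the 6 fits without 1 library the call was kept in the one without control library 3 alone, with an adjusted p between 0.0421 and 0.0671. It was lost with no filter (0.103) and without the trend (0.0793). The ubiquitin ligase gene Syvn1 and its adaptor Sel1l, which work with Herpud1 in removing misfolded protein, had changes of 0.19 (95% interval -0.05 to 0.42) and 0.16 (-0.06 to 0.37). Edem1, which marks misfolded glycoproteins for removal, had a change of 0.02 (-0.23 to 0.26).

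Hspa5, which encodes the chaperone BiP, stood at 149, 167 and 154 FPKM in the control libraries and at 206, 182 and 176 FPKM in those labelled knockout. The groups did not overlap, yet the change missed the threshold (0.26 ± 0.08, limma adjusted p = 0.158). The 3 co-chaperones of BiP among the members had fitted changes of -0.08 for Dnajb9, -0.03 for Dnajc3 and -0.01 for Dnajb11, and Hyou1, which exchanges its nucleotide, of 0.05, all with intervals that hold 0. The secreted or luminal stress proteins Manf (0.04), Creld2 (0.14) and Sdf2l1 (0.16) had intervals that hold 0, and Hsp90b1, the HSP90 of the organelle, stood at 55.0 ± 4.05 and 48.8 ± 4.47 FPKM.

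In the folding of glycoproteins, Pdia3 (ENSMUSG00000027248, chromosome 2, 121413775 to 121438687, GRCm38) stood at 285, 288 and 297 FPKM in the control libraries and at 239.6, 219.8 and 228 FPKM in those labelled knockout. All control libraries lay above all others, and Pdia3 fell by 0.34 on the log2 scale (SE 0.07, limma adjusted p = 0.0401). The call was lost whichever of the 6 libraries was left out (adjusted p between 0.0722 and 0.184), with no filter (0.214) and without the trend (0.122). Pdia3 lies 3.29 Mb from Thbs1, and whether DNA carried along with the targeted Thbs1 allele bears on its level was not tested. Calr, the lectin chaperone calreticulin that works with the product of Pdia3, stood at 403, 378 and 409 FPKM and at 344, 326 and 308 FPKM, without overlap (-0.28 ± 0.07, limma adjusted p = 0.102). Calr lies on chromosome 8, and its change passed the threshold with quantile normalization (limma adjusted p = 0.0225) but shrank to -0.08 with TPM (0.368), the rescaling described further on. The membrane-bound counterpart of calreticulin, Canx, stood at 154, 148 and 148 FPKM and at 138, 141 and 163 FPKM, with overlap (-0.03, 95% interval -0.21 to 0.14). The remaining disulfide isomerases P4hb (-0.02), Pdia6 (0.01) and Pdia4 (-0.12) had intervals that hold 0.

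**Figure D3:**
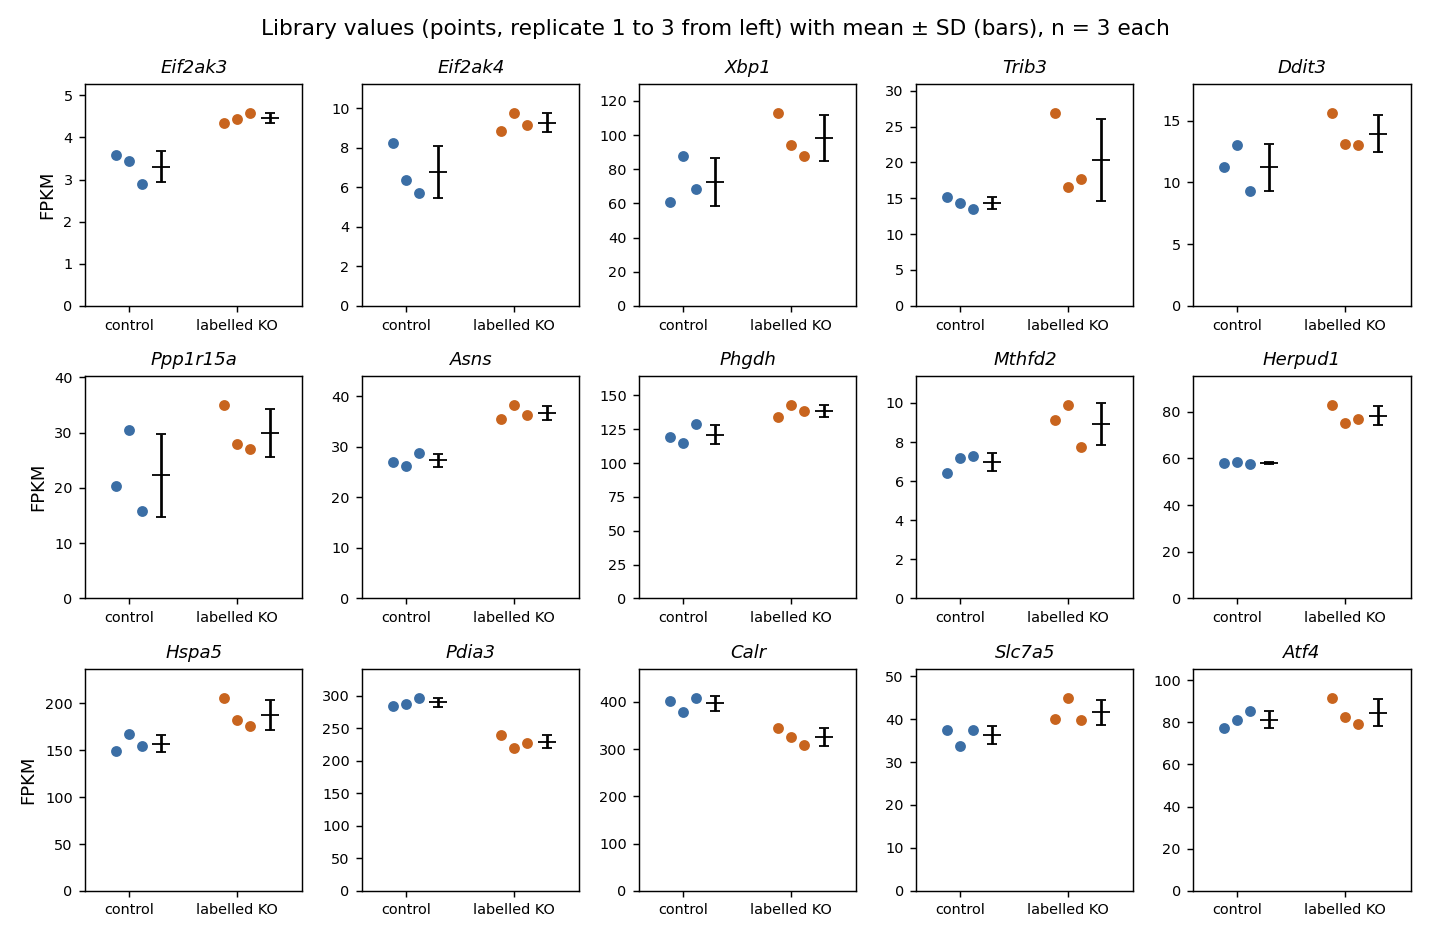
FPKM (y axes, from 0) of 15 members in control libraries and in those labelled knockout (labelled KO), with 1 point per library and bars for mean ± SD (n = 3 each). Herpud1 and Asns separate upward with little spread and Pdia3 and Calr separate downward, whereas control library 2 of Xbp1, Ddit3 and Ppp1r15a reaches the other group.

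Other genes of the same pathways, 91 of which could be tested, were separated between the groups in 14 cases upward (15.4%) and 8 downward (8.8%), near the 12.6% and 10.1% of all tested genes, and 0 were called higher and 2 lower. Of all tested genes, 0.566% were called higher, 0.996% lower, and 16.4% had an unadjusted p below 0.05. Of 23 other targets of ATF4, 14 could be tested, limma called 0, and 3 (21.4%) had such a p. Gpt2, which makes alanine, stood at 2.59, 2.95 and 2.42 FPKM and at 3.80, 4.17 and 4.04 FPKM (0.46 ± 0.12, limma adjusted p = 0.115), and the proline enzyme gene Pycr1 at 1.77 ± 0.275 and 2.55 ± 0.425 FPKM. Vldlr, a lipoprotein receptor gene, pointed down, from 3.65 ± 0.861 to 1.81 ± 0.297 FPKM on average (-0.72 ± 0.17, limma adjusted p = 0.0781). Of 18 genes of eIF2 and its regulators, limma called 0, and 3 had an unadjusted p below 0.05 (16.7%, near the share of all tested genes). Eif2b1 and Eif2b2, subunits of the exchange factor that recharges eIF2, stood at 34.5 ± 0.194 and 42.6 ± 3.72 FPKM and at 34.8 ± 1.03 and 39.3 ± 1.30 FPKM, and Impact, an inhibitor of GCN2, at 16.7 ± 1.38 and 13.9 ± 0.695 FPKM, each without overlap of the groups.

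Of 60 other genes of entry, folding and degradation in the endoplasmic reticulum, 59 were tested and 2 fell. Over all tested genes, 0.996% were called lower. Tmbim6, which encodes the membrane protein BAX inhibitor 1, known to hold back IRE1, stood at 84.0, 88.2 and 88.1 FPKM in the control libraries and at 65.3, 57.8 and 58.9 FPKM in those labelled knockout, without overlap (-0.51 ± 0.07, limma adjusted p = 0.00943, the smallest among the members and these other lists). It stayed called in 5 of 6 fits with a library left out and lost its call without library 2 labelled knockout (adjusted p = 0.0546). Erlec1, a lectin that hands misfolded glycoproteins to degradation, stood at 7.39, 6.92 and 7.35 FPKM and at 3.70, 4.66 and 4.87 FPKM (-0.61 ± 0.12, limma adjusted p = 0.0399). Its call was lost whichever of the 6 libraries was left out (adjusted p between 0.0785 and 0.121), and calls of both genes were lost with no filter (0.0926 for Tmbim6, 0.184 for Erlec1) and without the trend (0.0610 and 0.0627). Pdia5 stood at 19.5 ± 1.92 and 25.5 ± 1.62 FPKM (0.37 ± 0.09, limma adjusted p = 0.0857). The median change of the 59 was 0.02.

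Rescaling to a common total changed how many members were called higher. Summed over all genes, FPKM came to between 373903 and 408726 in the control libraries and between 329434 and 339652 in those labelled knockout. Rescaling every library to the same sum (TPM), after which more genes passed the filter, moved the median log2 change of all tested genes from 0.01 to 0.19. With TPM 16 of 44 tested members were called higher and 0 lower, in place of 2 and 1 of 43. Calls over all genes were 94.0% higher in place of 36.2%. The background then was 13.2% of 15277 tested genes called higher. The median of the members was 0.25, or 0.06 above that of all genes, so most of their shift was shared with the whole table. Herpud1 and Asns stayed called under TPM (log2 changes 0.63 and 0.62). Hspa5 (0.46), Xbp1 (0.65), Eif2ak4 (0.64), Eif2ak3 (0.59), Trib3 (0.67), Mthfd2 (0.53) and Phgdh (0.40) passed the threshold. So did Atf4, Creld2, Eif2ak1, Pdia6, Psat1, Shmt2 and Slc7a5. Pdia3 lost its call (-0.14, limma adjusted p = 0.124). Outside the members, Erlec1 lost its call as well (-0.49, limma adjusted p = 0.0557), and the change of Tmbim6 shrank to -0.31. Scaling by the median of ratios and quantile normalization each left 2 members called higher.

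**Figure D4:**
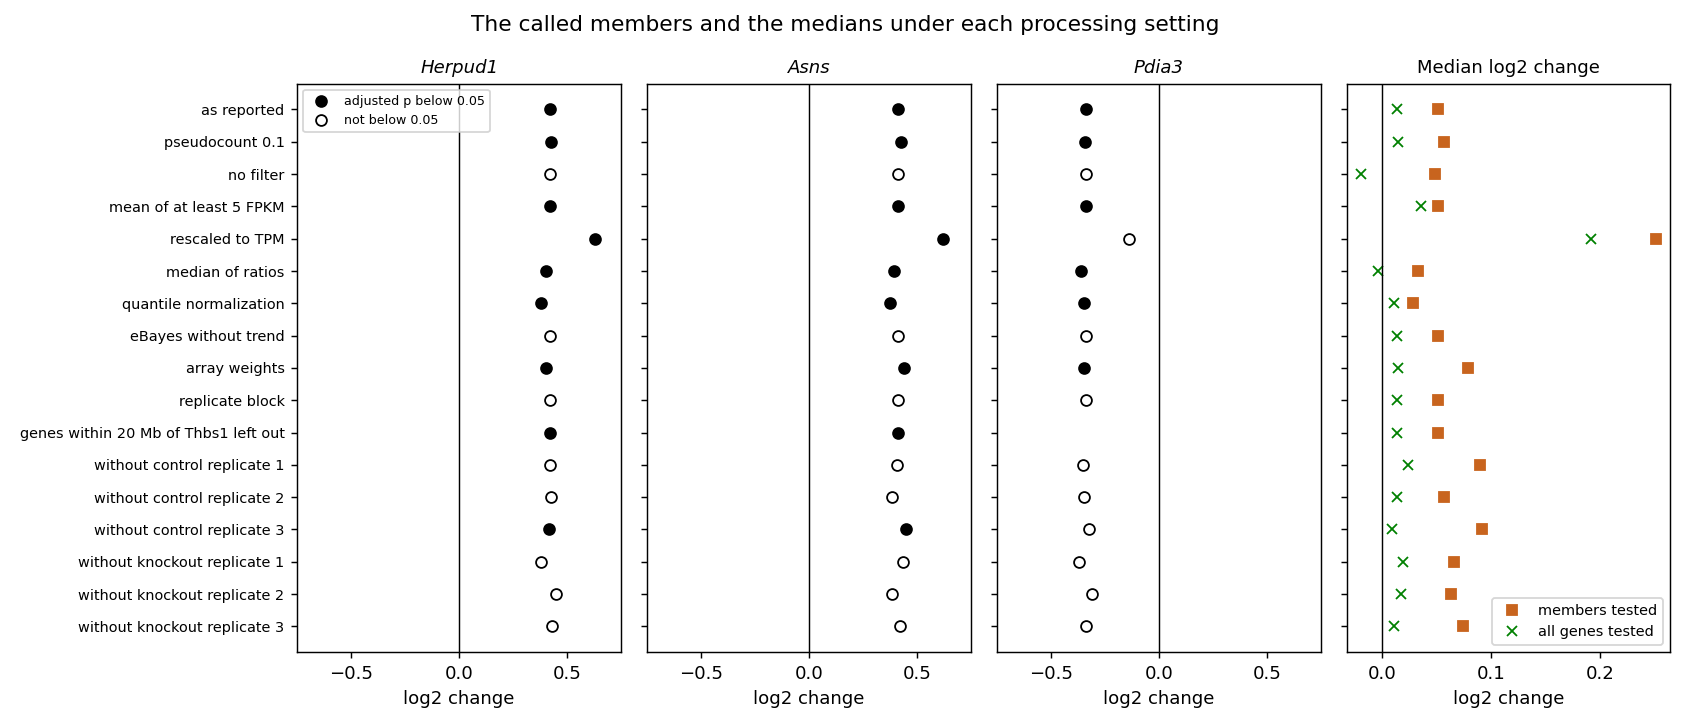
Log2 change (x axes) of Herpud1, Asns and Pdia3 under each processing setting (rows), filled where the adjusted p was below 0.05, and, in the right panel, the median change of the tested members (squares) and of all tested genes (crosses). The changes of Herpud1 and Asns stay between 0.38 and 0.63, and both medians move up together under TPM.

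Several members were highest in the same library. The first library labelled knockout was the highest of all 6 in 13 of the 43 tested members (30.2%, against 21.2% of all tested genes). These were Xbp1, Trib3, Ddit3, Ppp1r15a, Hspa5, Cebpb, Atf4, Herpud1, Creld2, Syvn1, Sel1l, Hyou1 and P4hb. That library also had the greatest depth (30890000 reads), and any part of depth was not tested. Library 2 labelled knockout was the highest in 8 members (18.6%, against 16.1%), among them Asns and Mthfd2. Control library 3 was the lowest in 14 (32.6%, against 21.7%). Without the first library labelled knockout, Herpud1, Asns and Pdia3 lost their calls in the limma fit, with changes of 0.38 for Herpud1 (adjusted p = 0.0519), 0.43 for Asns (0.0534), -0.37 for Pdia3 (0.0722), 0.34 for Xbp1 (0.305), 0.19 for Hspa5 (0.314) and 0.22 for Ddit3 (0.499). With all 6 libraries the changes of Asns and Pdia3 were smaller in size, at 0.413 and -0.339. Leaving out most other single libraries also cost these calls, and fewer libraries mean less power.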

How the data were processed

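Full-length cDNA from 2 ng of total RNA per library was made with the SMART-Seq v4 kit, per the labels' protocols. This kit does not mark strand, so reads of overlapping genes cannot be told apart. The authors deposited 1 table of FPKM with 2 decimals. Named in the submitters' processing notes are STAR, edgeR, FastQC 0.11.5 and the builds GRCm38 and mm10. How fragments were counted, and on which annotation, is not given in the sources used. Positions and exon lengths come from GENCODE M21 (GRCm38), which matched all 52183 identifiers. Depth was read from values of genes with at most 400 bases of exon, of which between 99.5% and 99.8% were whole reads within 0.1. Chi-square per degree of freedom between replicates lay between 7.88 and 15.9, so none was a copy.

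Genes reaching 1 FPKM in 3 or more libraries entered a limma fit of log2(FPKM + 1) (limma 3.58.1, R 4.3.3, intensity trend, group as the only term, two-sided, Benjamini-Hochberg over all tested genes, threshold 0.05). The fit was tested on simulated data. Fold changes on this scale understate low genes. Near-identical copies were searched with BLAST 2.17.0 (at least 95% identity over 300 bases). The members and lists were chosen with earlier results of these data known. Full statistics go to called members and the 3 with the smallest p in each role; of other lists, called genes and up to 3 with the smallest p are named. Library values of Hspa5, Slc7a5, Atf4 and Canx were added after they were seen. Alternatives were another pseudocount, other filters, scalings and variance models, array weights, a replicate block, leaving out genes within 20 Mb of Thbs1, and leaving out each library.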

Additional observations from a re-analysis of the deposited data

How the results depend on the processing

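With 2 members called higher and 1 lower as reported, no filter (8 and 16 of all genes), eBayes without trend (24 and 65) and the replicate block (27 and 54) called 0 members and 0 other pathway genes either way, in place of 71 and 125 genes overall. The labels do not say whether the replicate numbers pair the libraries. Deviations of same-numbered libraries correlated at -0.11, 0.037 and -0.079, which with 3 libraries per group cannot decide it. TPM gave 16 members higher and 0 lower, 20 other pathway genes higher and 2016 genes higher. A mean of at least 5 FPKM and array weights each gave 112 genes higher, and array weights 1 other pathway gene higher. Quantile normalization called 2 members lower. Leaving out genes within 20 Mb of Thbs1 left 0 lower, because it removes Pdia3. Leaving out each library gave 0 to 2 members higher and 0 lower, 16 to 38 genes higher and 43 to 77 lower, and 0 to 1 other pathway gene lower; fewer libraries also mean less power. Apart from the construction of each setting, the cause of these shifts was not tested. In all these fits, no change of the 15 genes given full statistics reversed. Of their alternatives 189 kept the side of the threshold, mostly for uncalled genes, and 8 gained a call. The 40 that lost a call all fell on Herpud1, Asns, Pdia3, Tmbim6 and Erlec1. Besides the fits without 1 library, Herpud1, Asns and Tmbim6 stayed called in 7 of 10 alternatives each. Erlec1 did so in 6 of 10 and Pdia3 in 5 of 9. Atf5, Chac1 and Slc7a11 held too few reads to be tested.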
